A study of Sus scrofa with 12 samples.

Results

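Genes for protein processing in the endoplasmic reticulum (ER) were followed across the endometrium of sows fed a low-fiber or a high-fiber diet with or without N-carbamylglutamate (NCG). The members were taken from the pathway annotation deposited with the expression table, as every gene that it places in the KEGG pathway of this name. They numbered 160 of the 20674 genes in the table, and 153 of them passed the filter on low counts that left 15351 genes for testing. The L − N group received 3.73% crude fiber without NCG, and the L + N group received the same diet with 0.05% NCG. The H − N group received 7.46% crude fiber without NCG, and the H + N group received that diet with 0.05% NCG. All groups were fed from breeding through 114 days of gestation, and 3 libraries of poly(A) RNA from endometrium were sequenced per group, 12 in all. The sows were Landrace × Yorkshire crosses, and soybean bran and beet pulp supplied the added fiber. NCG is an analog of N-acetylglutamate, the compound that switches on the first step of the urea cycle and so favors arginine synthesis.

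Secreted and membrane proteins enter the ER through the SEC61 translocon, receive N-glycans from the oligosaccharyltransferase, and fold with help from HSPA5, the calnexin and calreticulin lectins and the protein disulfide isomerases. Cargo that folds leaves in vesicles coated by COPII, and cargo that fails is pulled back into the cytosol for ubiquitination and proteasomal breakdown, a route called ER-associated degradation (ERAD). When unfolded protein accumulates, the sensors ERN1, EIF2AK3 and ATF6 start the unfolded protein response, in which XBP1, ATF4 and DDIT3 act as transcription factors. The uterine lining is a secretory tissue, with glands that feed the conceptus and a stroma that lays down collagen, and both depend on this machinery. The annotated pathway also holds cytosolic chaperones and ubiquitin ligases that receive the retrotranslocated proteins, and kinases and proteases of stress-induced cell death.

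Library totals lay between 14369781 and 19309724 counts, and the pathway genes held 2.20% to 3.01% of them. Markers of epithelium, stroma, endothelium, smooth muscle, macrophages, plasma cells and dividing cells were all detected, and no gene of these 7 lists was at 0 over the 12 libraries. Of the libraries, 3 stood apart. On the first component of all genes, L − N replicate 1 had a score of -22.6 against -67.2 and -65.5 in the other L − N libraries. H − N replicate 3 and H + N replicate 3 stood apart for the pathway genes themselves, as described with the translocon. Over all genes, H − N replicate 3 also had the lowest mean correlation with its own group, 0.947, next to 0.948 for L − N replicate 1. It had the highest score on the second component, 49.9. Tissue RNA was measured in bulk, so fewer cells of a type and less RNA per cell cannot be told apart. Sows were drawn at random within each group for tissue sampling, how those sequenced were chosen among them is not given in the sources used here, and the p-values measure the spread between these 3 libraries per group.

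Measured per length of transcript, the pathway was abundant. The median of the 153 members was 25.1 FPKM (a count scaled to gene length and library total) over the 12 libraries, compared with 6.98 FPKM for all genes tested. Cytosolic HSP90AA1 led with a mean of 616 FPKM, followed by the disulfide isomerase PDIA3 at 528, the constitutive cytosolic HSP70 protein HSPA8 at 521 and HSP90AB1 at 502 FPKM. Next in order were the lectin chaperone CALR at 380 FPKM, the ubiquitin-conjugating enzyme UBE2D3 at 373, the ER HSP70 protein HSPA5 at 208, the translocon-associated subunit SSR2 at 201, the ER HSP90 protein HSP90B1 at 198 and the membrane lectin CANX at 192 FPKM. Among the roles, the disulfide-forming enzymes had the highest median, 93.4 FPKM over 8 genes, and the translocon and oligosaccharyltransferase came next with 55.8 FPKM over 21 genes. Stress kinases and cell death effectors had the lowest median, 8.97 FPKM over 14 genes. HSP90AB1 and HSP90B1 each overlap a gene on the opposite strand, and HSP90AA1 lies on a sequence with no assigned chromosome.

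**Figure D1:**
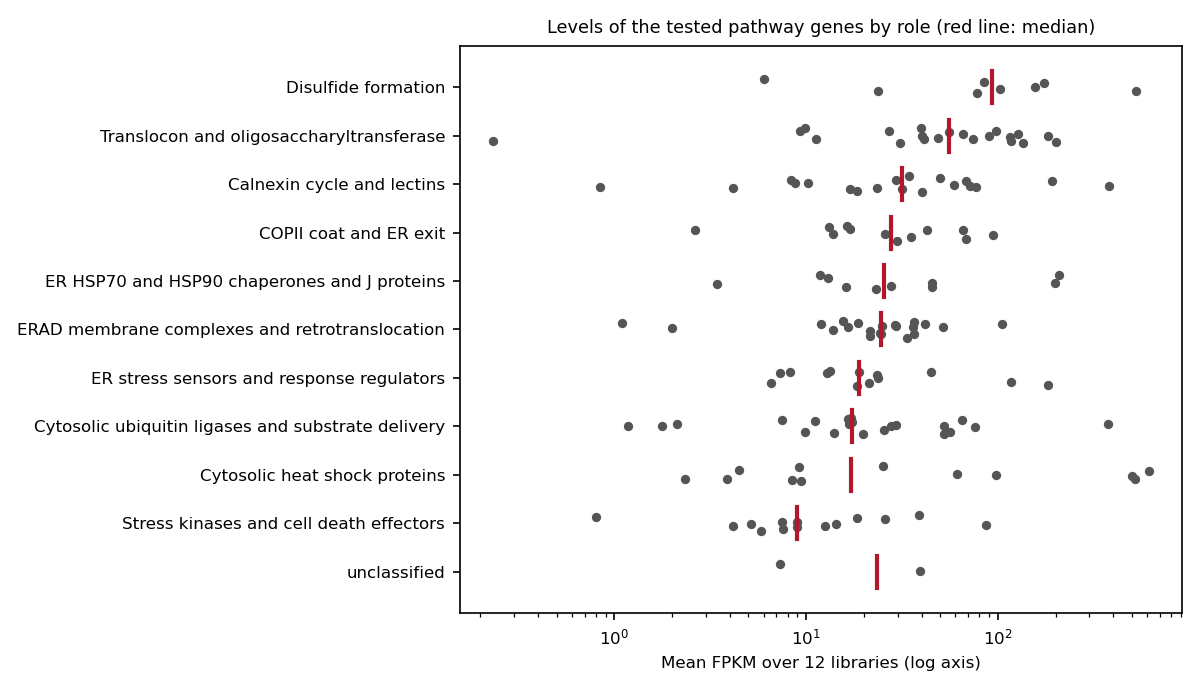
Mean level over 12 libraries, in FPKM on a log axis, of the 153 tested pathway genes by role, with 1 point per gene and a red line at the median. Disulfide formation has the highest median, 93.4 FPKM, and single genes such as HSP90AA1 (616 FPKM) and HSPA8 (521 FPKM) lie far to the right of their role's median.

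Among the members that did not pass the filter, CRYAA and DNAJC5B had no count in any library. LOC100520183 had 2 counts over all 12 libraries, DNAJC5G had 3, LMAN1L had 56 and SEL1L2 had 71. Within groups the median SD on the log2 CPM scale was 0.21 for the pathway's members and 0.28 for all genes tested. The members were also more abundant (25.1 against 6.98 FPKM at the median), and the spread was not compared at matched levels. The interferon-induced kinase EIF2AK2 varied most within groups, with an SD of 0.74, and its counts scaled to the effective library total (CPM) were 86.7, 115 and 419 in the 3 H − N libraries. The smallest spread, 0.05, was that of the ubiquitin-conjugating enzyme UBE2G1.

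The comparison of the L + N group with the L − N group asked what NCG does on a low-fiber diet. In the quasi-likelihood test of edgeR, with Benjamini-Hochberg adjusted p-values over all genes, 10 of the 153 members (6.54%) changed, where the share over all genes tested was 9.6%. Of these, 3 were higher, against 5.97% of all genes, and 7 were lower, against 3.63% of all genes. The members that rose were the cytosolic chaperone HSPA4L, the deubiquitinase YOD1 and the kinase MAPK10. Those that fell were PPP1R15A, MAN1C1, UBXN6, CAPN2, MAP2K7, BCAP31 and UBE2D2. The median log2 fold change was -0.16 over the members and -0.02 over all genes, and 37 of the 153 members (24.2%) had a value above 0 compared with 47.7% of all genes.

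In the H + N group compared with the L − N group, the comparison that combines both supplements, 8 members (5.23%) changed, against 7.97% of all genes tested. HSPA4L, HSPH1, YOD1 and MAN1A2 rose, beside 4.31% of all genes, and PPP1R15A, UBXN6, CAPN2 and MAN1C1 fell, beside 3.66%. For the NCG main effect, the mean of both NCG groups minus the mean of both groups without it, 6 members (3.92%) changed against 7.27% of all genes. Here HSPA4L, HSPH1 and YOD1 rose, beside 5.67% of all genes, and BAG1, MAP2K7 and UBXN6 fell, beside 1.6%. In the H − N group compared with the L − N group, SEC31B rose and PPP1R15A fell, 2 members (1.31%) against 5.27% of all genes, of which 1.56% rose and 3.71% fell. The L − N libraries are shared by the comparisons of L + N, H − N and H + N with them. The share of members called was lower than that over all genes in value in these 4 comparisons, and the difference was not tested. Without both H − N replicate 3 and H + N replicate 3 the share in L + N was 13.7% of members and 13.4% of all genes. In all, 14 different members were called in at least 1 of these 4 comparisons. The matching share over all genes was not counted, so the 14 cannot be set against it.

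**Figure D2:**
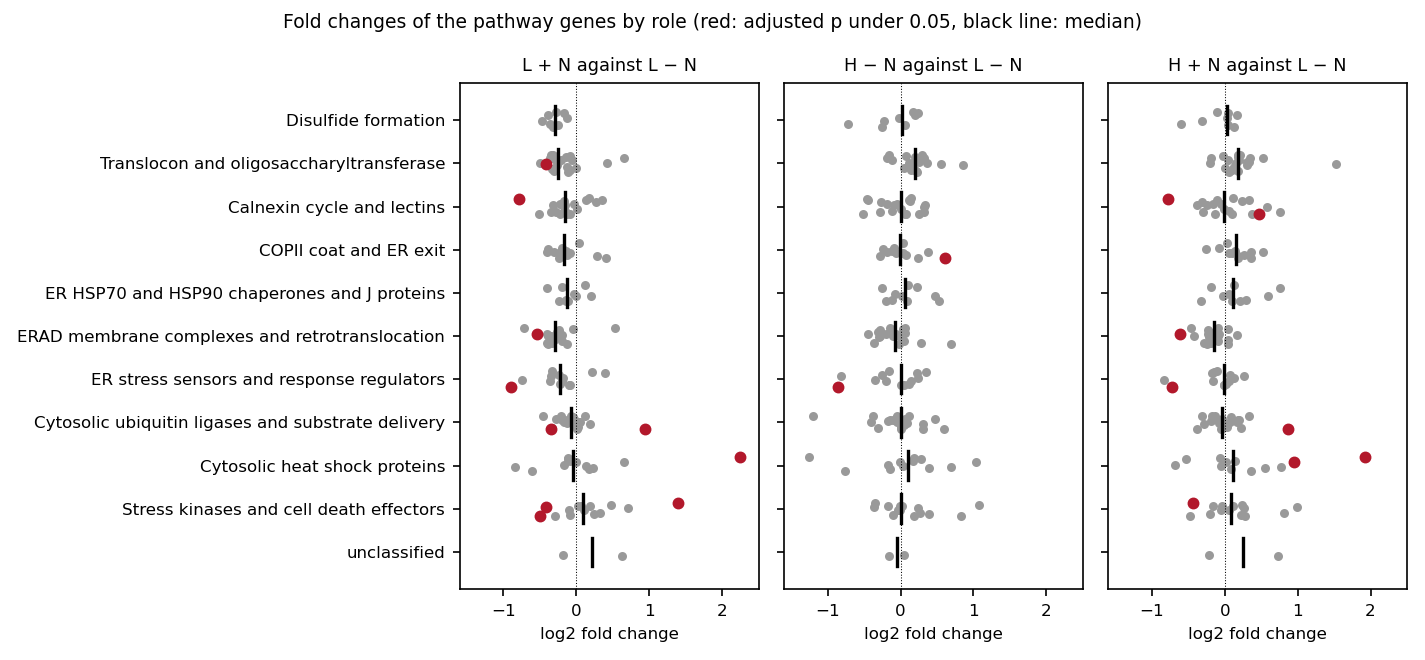
Log2 fold changes of the 153 tested members by role in the 3 comparisons with the L − N group, with 1 point per gene, red points for adjusted p under 0.05 and a black line at each role's median. The red points number 10 for L + N, 2 for H − N and 8 for H + N, and HSPA4L at 2.25 and 1.92 lies farthest to the right in the panels of L + N and H + N.

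For the fiber main effect, the mean of both high-fiber groups minus the mean of both low-fiber groups, edgeR called 0 members, and the share over all genes was 0.0521%. At an unadjusted p under 0.05 there were 28 members (18.3%), compared with 19.5% of all genes. DESeq2 called 5 of 158 members (3.16%) and 5.94% of all genes. Of these 5, the ubiquitin ligase RNF5 (log2 fold change 0.29), the COPII gene SEC31B (0.27) and the oligosaccharyltransferase subunit TUSC3 (0.57) were higher with fiber, and the deubiquitinase ATXN3 (-0.33) and the ER oxidase ERO1B (-0.54) lower. Without L − N replicate 1, edgeR also called 5 members (3.27%), and 6.99% of all genes. They were TUSC3 (0.66), HSPA2 (0.78), ERO1B (-0.62), HSPA6 (-0.84) and BAX (-0.33). Of these names, HSPA6 falls outside the rule for named genes and was chosen after its values were seen.

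The interaction of fiber and NCG was the difference between the NCG effects on both diets (high-fiber minus low-fiber). It had 0 members called by edgeR and 0% of all genes, with 12 members (7.84%) at an unadjusted p under 0.05 beside 12.8% of all genes. DESeq2 called 2 members (1.27%), PPP1R15A (1.05) and SEC31B (-0.65), and 1.56% of all genes. In H + N compared with H − N edgeR called 0 members and 0% of all genes, with 7 members (4.58%) at an unadjusted p under 0.05 beside 8.67% of all genes. In H + N compared with L + N it likewise called 0 members and 0% of all genes, with 12 (7.84%) at an unadjusted p under 0.05 beside 4.68% of all genes. DESeq2 called 0 members in each of these last 2 comparisons, and 0.25% and 0.0109% of all genes in turn.

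HSPA4L (gene 100517839, Sscrofa11.1 chromosome 8 from 97032179 to 97088240, minus strand) encodes a cytosolic HSP110-type protein that exchanges the nucleotide of HSP70. It had 5.09, 8.53 and 6.45 CPM in the L − N libraries and 33.8, 37.1 and 24.4 CPM in the L + N libraries. In the H − N libraries the values were 6.32, 15.6 and 19.4 CPM, and in the H + N libraries 28.3, 25.2 and 22.6 CPM. Every library with NCG lay above every library without it. The log2 fold change by edgeR's quasi-likelihood test was 1.57 ± 0.25 (SE) for NCG (adjusted p = 0.00708), 2.25 ± 0.36 for L + N compared with L − N (adjusted p = 0.00818) and 1.92 ± 0.36 for H + N compared with L − N (adjusted p = 0.0182). It was the one member that also passed an absolute log2 fold change of 1 in all of these comparisons, where 1.8%, 3.99% and 3.58% of all genes did, and for H − N, where 2.91% of all genes did, no member passed. In H − N compared with L − N it was 1.04 ± 0.35 (adjusted p = 0.105), and the interaction was -1.36 ± 0.49 (adjusted p = 0.309). The call for NCG and that for L + N held in 12 of 12 fits that each left out 1 library, while that for H + N was lost without L − N replicate 3 and without H + N replicate 1, with an adjusted p of at most 0.0833.

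HSPH1 (gene 100048931, chromosome 11 from 7733874 to 7759528, minus strand), the HSP105 member of the same family, had 57.7, 73.3 and 63.2 CPM in L − N and 104, 108 and 92.8 CPM in L + N. Its values were 53.4, 74.3 and 108 CPM in H − N and 122, 105 and 149 CPM in H + N. The L − N values lay below those of both NCG groups, and H − N replicate 3 reached into their range. HSPH1 had a log2 fold change of 0.66 ± 0.16 for NCG (adjusted p = 0.0291) and 0.95 ± 0.22 for H + N compared with L − N (adjusted p = 0.0308), and that for L + N compared with L − N was 0.65 ± 0.22 (adjusted p = 0.0869). The NCG call was lost without L − N replicate 3, L + N replicate 1 or 2, H − N replicate 2, or H + N replicate 1 or 3, and the H + N call without any L − N library or H + N replicate 1 or 3, and in a fit of only the 2 groups compared, with an adjusted p of at most 0.113.

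The cytosolic heat shock proteins as a role had 12 tested members. HSPA4L and HSPH1 rose with NCG and in H + N, and HSPA4L alone in L + N, beside 5.67%, 4.31% and 5.97% of all genes in turn. In these comparisons 0 fell. The role's median log2 fold change was 0.07 for NCG, 0.12 in H + N and -0.05 in L + N, with 7, 8 and 5 of the 12 members above 0. The most abundant of these 12 members did not pass the test in any comparison. HSP90AA1 averaged 1533 ± 167 CPM (SD, n = 3) in L − N, 1436 ± 160 CPM in L + N, 1387 ± 71.2 CPM in H − N and 1632 ± 163 CPM in H + N. HSPA8 averaged 1001 ± 179 CPM in L − N and 1466 ± 496 in H + N, and the log2 fold change between them was 0.55 with a 95% interval from 0.01 to 1.09 (adjusted p = 0.174). The H + N libraries held 1320, 1059 and 2018 CPM of HSPA8, with replicate 3 highest, and the second of them lay inside the L − N range.

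HSP70.2, the heat-inducible HSP70 gene that RefSeq lists under the synonyms HSPA1A and HSPA1B, was in no role list. It had 49.98, 84.5 and 39.0 CPM in L − N, 76.4, 73.5 and 118 CPM in L + N, 47.4, 40.8 and 91.9 CPM in H − N, and 77.1, 79.7 and 130 CPM in H + N. The groups with and without NCG overlapped, and the log2 fold change for NCG was 0.65 ± 0.26 (adjusted p = 0.157). HSP70.2 overlaps HSPA1L on the opposite strand and belongs to a family of near-identical copies, so that its counts are uncertain. HSPA2, a further HSP70 gene, had a log2 fold change of 0.64 ± 0.21 for fiber (adjusted p = 0.135).

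YOD1 (gene 100520400, chromosome 9 from 67672640 to 67681889, minus strand) encodes a deubiquitinase that works with the VCP segregase on ERAD substrates. It had 11.8, 9.97 and 11.4 CPM in L − N and 21.7, 24.8 and 17.1 CPM in L + N. The H − N libraries had 13.6, 16.3 and 20.4 CPM and the H + N libraries 21.6, 16.5 and 22.3 CPM. All 9 libraries of the other groups were above the 3 of L − N, and H − N overlapped both NCG groups. YOD1 had a log2 fold change of 0.94 ± 0.20 for L + N compared with L − N (adjusted p = 0.0187), 0.87 ± 0.20 for H + N compared with L − N (adjusted p = 0.0309), and 0.60 ± 0.14 for NCG (adjusted p = 0.029). The first call was lost without L − N replicate 2 or 3 or L + N replicate 1 or 2, the second without L − N replicate 2 or 3 or H + N replicate 1 or 3, and that for NCG without any of 8 libraries (these 6, H − N replicates 1 and 2), with an adjusted p of at most 0.108. A fit with the replicate number as a block (the replicate block) ended the H + N and NCG calls, and leaving out replicate 3 of both high-fiber groups, or fitting only 2 groups, ended that for H + N. YOD1 overlaps PFKFB2 on the opposite strand.

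MAPK10 (gene 100521736, chromosome 8 from 132445818 to 132751575, plus strand), the JNK3 kinase of the stress cascade, was the second lowest tested member at 0.80 FPKM. It had 6.11, 2.51 and 4.57 CPM in L − N, and rose to 12.7, 10.3 and 11.8 CPM in L + N. The values were 5.96, 8.39 and 9.04 CPM in H − N and 9.69, 9.72 and 6.87 CPM in H + N. The L + N libraries were the 3 highest of all 12. Its log2 fold change was 1.40 ± 0.31 for L + N compared with L − N (adjusted p = 0.0207), a call lost without L − N replicate 3 or any of the L + N libraries, and with only 2 groups fitted (adjusted p at most 0.0782). MAP2K7, the kinase that activates JNK proteins, went the other way. It had 44.8, 43.0 and 51.9 CPM in L − N and 36.8, 31.8 and 36.0 CPM in L + N, without overlap, and 45.9, 44.7 and 45.5 CPM in H − N and 39.9, 38.8 and 43.1 CPM in H + N. Its log2 fold change was -0.41 ± 0.11 for L + N compared with L − N (adjusted p = 0.037) and -0.29 ± 0.08 for NCG (adjusted p = 0.0462). The NCG call remained in 1 of the 12 fits without a library, that without H + N replicate 3, and the L + N call in 5 of them, being lost without L − N replicate 2 or 3, any L + N library, H − N replicate 2 or H + N replicate 1, and the highest adjusted p was 0.155. The L + N call was also lost with only 2 groups fitted, and the NCG call without the count filter, with the replicate block and without both high-fiber replicates 3.

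PPP1R15A (gene 100522679, chromosome 6 from 54172038 to 54175461, plus strand) encodes GADD34, the phosphatase subunit that removes phosphate from the initiation factor eIF2α and restores translation after stress. It had 81.1, 72.0 and 89.5 CPM in L − N. In L + N the values were 49.5, 41.9 and 39.2 CPM, in H − N 42.4, 37.9 and 53.7 CPM, and in H + N 40.4, 65.1 and 42.0 CPM. All 9 libraries with fiber, NCG or both lay below the 3 L − N libraries, and the 3 supplemented groups overlapped one another. Compared with L − N, the log2 fold change was -0.89 ± 0.20 in L + N (adjusted p = 0.0207), -0.86 ± 0.20 in H − N (adjusted p = 0.0359) and -0.72 ± 0.20 in H + N (adjusted p = 0.049). The L + N call was lost without L − N replicate 3 or L + N replicate 2 or 3, and the H − N call without L − N replicate 2 or 3, L + N replicate 2, or H − N replicate 1 or 2. The H + N call remained in 2 of 12 such fits, those without H − N replicate 3 and without H + N replicate 2, and the highest adjusted p over these fits was 0.156. With the replicate block and with only 2 groups fitted, the H − N and H + N calls were lost, and the H + N call was also lost without the count filter and without both high-fiber replicates 3, while the L + N call held in these fits. PPP1R15A was the one member of the stress sensors and regulators that passed the test in any comparison.

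Markers of other cells moved with the same comparisons. The summed level of 5 macrophage markers (CD68, CD163, CSF1R, AIF1 and CD14) was 465, 1357 and 1384 CPM in L − N, with the low value in replicate 1, and 246 to 528 CPM in the other 9 libraries. Of these 5 markers, 4 fell in H − N, 2 in L + N and 3 in H + N compared with L − N, beside 3.71%, 3.63% and 3.66% of all genes in turn. The 5 markers of dividing cells (MKI67, TOP2A, CCNB1, BUB1 and CDK1) summed to 45.7 to 143 CPM in L − N, 270 to 384 CPM in L + N, 153 to 202 CPM in H − N and 254 to 350 CPM in H + N. All 5 rose with NCG, in L + N and in H + N, and 1 in H − N, beside 5.67%, 5.97%, 4.31% and 1.56% of all genes in turn. Of 5 endothelial markers, 2 fell in L + N and 1 each with NCG (1.6% of all genes) and in H + N, and 1 of 5 smooth muscle markers fell in L + N. Of the stromal and plasma cell markers, 0 were called in these comparisons. The 5 smooth muscle markers summed to 3793 CPM in L − N replicate 1 and to 562 to 1441 CPM in the other 11 libraries. The 6 epithelial markers (CDH1, EPCAM, FOXA2, KRT8, KRT18 and KRT19) summed to 964 to 1348 CPM in L − N, 1356 to 1416 CPM in L + N, 1468 to 2177 CPM in H − N and 1135 to 1245 CPM in H + N. All 6 had a log2 fold change above 0 in H − N compared with L − N, with a median of 0.48, and 1 of them, CDH1, rose. The part of these cells in the changes of HSPA4L, PPP1R15A and the other members was not tested.

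**Figure D3:**
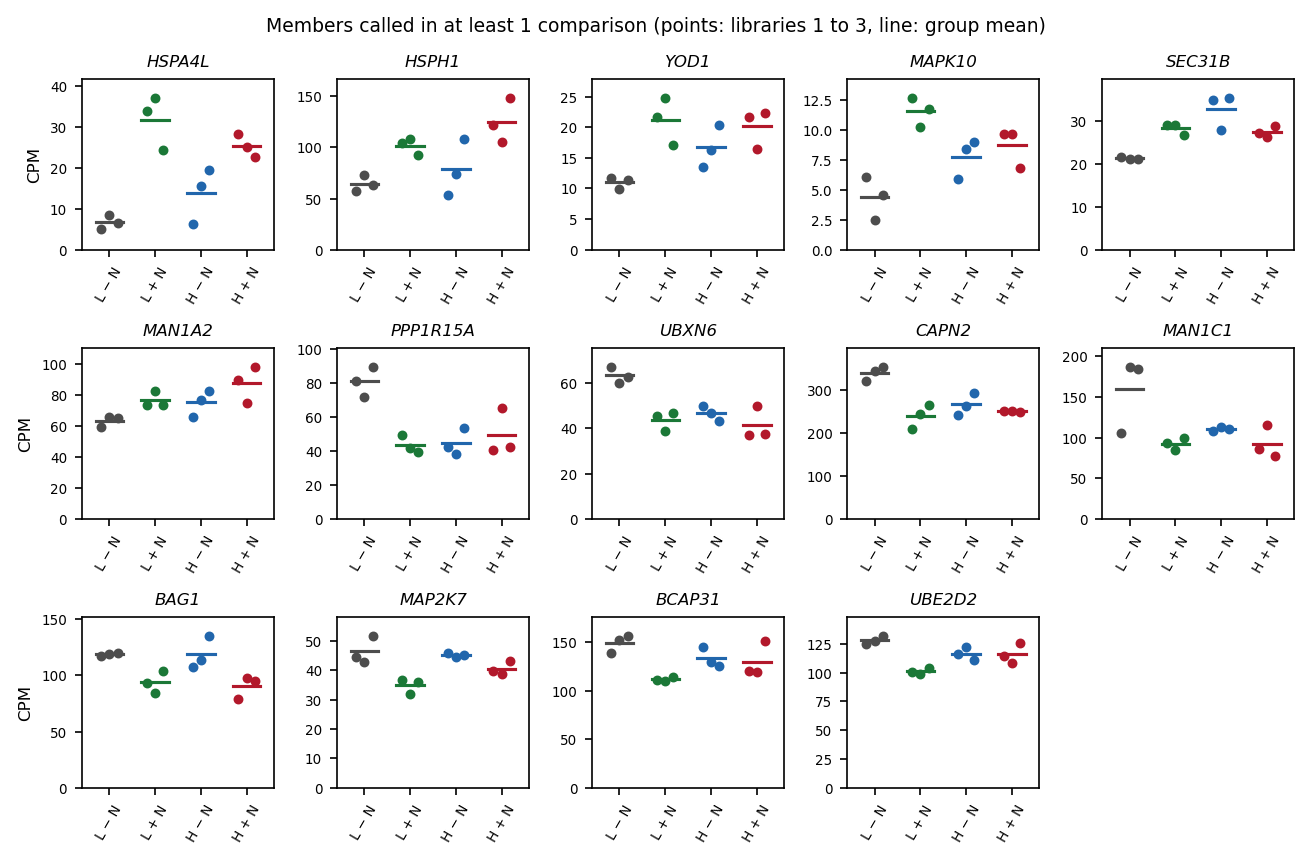
CPM of the 14 members called in at least 1 comparison, by group, with a point for each of the 3 libraries in the order of their replicate numbers and a line at the group mean, on axes that start at 0. HSPA4L in every NCG library exceeds every library without NCG, and PPP1R15A in every L − N library exceeds the other 9.

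UBXN6 (gene 100524481, chromosome 2 from 74357522 to 74378600, plus strand), an adaptor of VCP, fell in 3 comparisons. It had 67.4, 60.3 and 62.9 CPM in L − N, 45.4, 38.8 and 46.9 CPM in L + N, 50.1, 46.7 and 43.2 CPM in H − N, and 37.0, 49.98 and 37.8 CPM in H + N. No supplemented library reached the lowest L − N library. The log2 fold change was -0.54 ± 0.14 for L + N (adjusted p = 0.0321) and -0.61 ± 0.14 for H + N (adjusted p = 0.0276) compared with L − N, and -0.35 ± 0.10 for NCG (adjusted p = 0.049). In H − N compared with L − N it was -0.44 ± 0.14 (adjusted p = 0.0791). The L + N call was lost without any L − N or L + N library, the H + N call without L − N replicate 2 or 3 or H + N replicate 1 or 3, and the NCG call in every such fit but that without H + N replicate 2, with an adjusted p of at most 0.134. All 3 calls were lost with the replicate block, that for NCG without the count filter, that for H + N with only 2 groups fitted, and both of these without both high-fiber replicates 3.

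UBXN6 was the one member of the ERAD role called in L + N. Of its 21 tested members, 20 had a log2 fold change below 0 and 11 of these had an unadjusted p under 0.05, as did 13.7% of all genes in that direction. The median was -0.29, against -0.16 for all members and -0.02 for all genes, and it stayed between -0.32 and -0.25 when any 1 library was left out. SEL1L, the scaffold of the HRD1 ligase complex, had 245, 308 and 319 CPM in L − N and 222, 247 and 219 CPM in L + N, and its log2 fold change was -0.34 ± 0.13 (adjusted p = 0.122). HERPUD1, a stress-induced component of the same complex, averaged 159 ± 17.9 CPM in L − N and 125 ± 11.6 in L + N, with a log2 fold change of -0.35 ± 0.17 (adjusted p = 0.205). The one ERAD member with a value above 0 was SVIP, an inhibitor of the process, at 0.53 (adjusted p = 0.221). RNF5, a membrane-bound ubiquitin ligase, was at 31.0, 30.6 and 28.9 CPM in L − N and 25.6, 23.5 and 26.4 CPM in L + N, and at 36.7, 38.0 and 35.5 CPM in H − N and 27.2, 32.7 and 33.9 CPM in H + N. The L + N libraries were the 3 lowest of RNF5 and the H − N libraries the 3 highest, and its log2 fold change was 0.30 ± 0.08 for fiber (adjusted p = 0.102) and -0.25 ± 0.08 for NCG (adjusted p = 0.0927).

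CAPN2 (gene 397393, chromosome 10 from 19758824 to 19820241, plus strand), a calcium-activated protease, had 321, 345 and 355 CPM in L − N and 210, 244 and 266 CPM in L + N. The values were 242, 264 and 295 CPM in H − N and 252, 252 and 249 CPM in H + N, so that L − N did not overlap with any other group. Compared with L − N, the log2 fold change was -0.50 ± 0.12 in L + N (adjusted p = 0.0232) and -0.44 ± 0.12 in H + N (adjusted p = 0.0439), and -0.35 ± 0.12 in H − N (adjusted p = 0.0986). The L + N call was lost without L − N replicate 2 or 3 or L + N replicate 1 or 2, and the H + N call without L − N replicate 2 or 3, L + N replicate 2, H − N replicate 2 or any H + N library, with an adjusted p of at most 0.144. The H + N call was also lost without the count filter, with the replicate block, with only 2 groups fitted and without both high-fiber replicates 3. BAX, which permeabilizes mitochondria, averaged 39.0 ± 7.13 CPM in L − N and 28.1 ± 1.25 in H + N, and its log2 fold change of -0.47 ± 0.14 did not pass (adjusted p = 0.0592).

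Of the Golgi mannosidases, MAN1C1 and MAN1A2 changed in H + N, in opposite directions. MAN1C1 (gene 100524150, chromosome 6 from 83089942 to 83228648, plus strand) had 106, 187 and 185 CPM in L − N, 93.8, 84.4 and 98.9 CPM in L + N, 109, 113 and 111 CPM in H − N, and 86.2, 115 and 76.9 CPM in H + N. Here L − N replicate 1 lay among the other groups, and the difference from H + N rested on the other L − N libraries. MAN1C1 had a log2 fold change of -0.79 ± 0.21 in L + N (adjusted p = 0.0384) and -0.78 ± 0.21 in H + N (adjusted p = 0.0447) compared with L − N. MAN1A2 (gene 100154147, chromosome 4 from 103214929 to 103377132, minus strand) had 59.1, 65.5 and 64.9 CPM in L − N, 73.4, 82.2 and 73.5 CPM in L + N, 65.9, 76.8 and 82.4 CPM in H − N, and 89.4, 74.4 and 98.0 CPM in H + N. All 9 supplemented libraries exceeded those of L − N, and the log2 fold change for H + N was 0.47 ± 0.13 (adjusted p = 0.0469). Each of the H + N calls remained in 3 of 12 fits without a library, and that of MAN1C1 in L + N in 5, each being lost without L − N replicate 2 or 3, any L + N library, H − N replicate 2 or H + N replicate 1. The H + N calls were also lost without H + N replicate 3, that of MAN1C1 without H − N replicate 1 and that of MAN1A2 without L − N replicate 1, and the highest adjusted p was 0.152. The MAN1A2 call was lost in 5 of 6 other fits, with RLE scaling, no count filter, the replicate block, only 2 groups or both high-fiber replicates 3 left out, and remained by DESeq2. The block and the fit of only 2 groups also ended both MAN1C1 calls, and leaving out both replicates 3 that in H + N. MAN1A2 overlaps an uncharacterized gene on the opposite strand.

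SEC31B (gene 100513277, chromosome 14 from 111585917 to 111626691, minus strand), the less abundant form of the outer COPII coat protein, had 21.6, 21.2 and 21.2 CPM in L − N and 34.8, 27.8 and 35.4 CPM in H − N. The L + N libraries had 29.0, 29.1 and 26.7 CPM, and the H + N libraries 27.2, 26.3 and 28.9 CPM. The L − N libraries had an SD of 0.254 CPM and lay below all others. SEC31B had a log2 fold change of 0.61 ± 0.12 for H − N compared with L − N (adjusted p = 0.0253), 0.41 ± 0.12 for L + N (adjusted p = 0.0558) and 0.36 ± 0.12 for H + N (adjusted p = 0.0804). The call was lost without L − N replicate 2 or 3 or H − N replicate 1 or 3, without both high-fiber replicates 3 and with only 2 groups fitted (adjusted p at most 0.12). SEC31B overlaps WNT8B on the opposite strand, and the strand setting of the counting is not given in the sources used here.

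BAG1 fell with NCG, and UBE2D2 and BCAP31 fell in L + N compared with L − N. BAG1 (gene 100513225, chromosome 10 from 33227530 to 33240731, plus strand), a cochaperone that couples HSP70 to the proteasome, had 117, 119 and 120 CPM in L − N and 108, 114 and 135 CPM in H − N. With NCG it had 92.8, 84.1 and 104 CPM in L + N and 79.3, 97.3 and 95.3 CPM in H + N, so that no library with NCG reached one without it. The log2 fold change for NCG was -0.37 ± 0.09 (adjusted p = 0.0309), and the call was lost without L − N replicate 2 or 3, L + N replicate 1 or 2, H − N replicate 3 or H + N replicate 1, or without both high-fiber replicates 3 (adjusted p at most 0.0735). UBE2D2 (gene 396580, chromosome 2 from 141397937 to 141459821, plus strand), a ubiquitin-conjugating enzyme, had 125, 128 and 132 CPM in L − N and 101, 98.6 and 104 CPM in L + N, with H − N and H + N between 108 and 126 CPM. BCAP31 (gene 100520774, chromosome X from 124456999 to 124484923, minus strand), an ER membrane chaperone, had 138, 152 and 156 CPM in L − N and 111, 110 and 114 CPM in L + N, with 119 to 151 CPM in the other groups. L + N was the lowest group for both genes and overlapped with none. In L + N compared with L − N, the log2 fold change was -0.34 ± 0.09 for UBE2D2 (adjusted p = 0.0401) and -0.42 ± 0.11 for BCAP31 (adjusted p = 0.0445). Both calls remained in 5 of 12 fits, and were lost without L − N replicate 2 or 3, any L + N library, H − N replicate 2 or H + N replicate 1, and also without the count filter and with the replicate block (adjusted p at most 0.155).

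The sensors of the unfolded protein response and their factors did not pass the test in any of the 8 comparisons. ERN1, the kinase and nuclease that splices XBP1 RNA, had 51.8, 41.2 and 41.2 CPM in L − N, 39.4, 38.3 and 35.6 CPM in L + N, 54.9, 43.8 and 72.0 CPM in H − N, and 36.8, 43.2 and 38.3 CPM in H + N. The NCG libraries lay lower with an overlap at H + N replicate 2, and the log2 fold change for NCG was -0.39 with a 95% interval from -0.65 to -0.12 (adjusted p = 0.0793). DESeq2 called ERN1 for NCG (adjusted p = 0.033). EIF2AK3, the kinase that phosphorylates eIF2α, averaged 71.1 ± 15.0 CPM in L − N, 56.1 ± 4.22 CPM in L + N, 59.8 ± 16.8 CPM in H − N and 63.6 ± 12.3 CPM in H + N, and the groups overlapped. The interval of its log2 fold change for H + N compared with L − N ran from -0.63 to 0.31. ATF6 was the steadiest of the sensors, with group means of 173 to 192 CPM and an interval from -0.29 to 0.28 for the same comparison.

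XBP1 averaged 325 ± 76.7 CPM in L − N, 252 ± 17.5 CPM in L + N, 383 ± 44.1 CPM in H − N and 322 ± 68.5 CPM in H + N. Gene counts do not separate the spliced from the unspliced form of its RNA. Its log2 fold change was 0.29 for fiber (95% interval 0.00 to 0.59, adjusted p = 0.255) and -0.31 for NCG (-0.60 to -0.01, adjusted p = 0.192). ATF4 averaged 248 ± 9.14 and 212 ± 16.1 CPM in L − N and L + N, and 268 ± 80.0 and 270 ± 76.7 CPM in the corresponding high-fiber groups, and its 2 highest libraries were H − N replicate 3 at 359 and H + N replicate 3 at 355 CPM. DDIT3, the pro-apoptotic factor CHOP, had 15.2, 20.8 and 21.6 CPM in L − N and 17.5, 18.1 and 17.8 CPM in H + N, and the interval of the log2 fold change was -0.48 to 0.27. DDIT3 overlaps MARS on the opposite strand. MBTPS1, the protease that activates ATF6, averaged 188 ± 18.4 CPM in L − N, 165 ± 12.7 CPM in L + N, 219 ± 24.3 CPM in H − N and 190 ± 11.6 CPM in H + N, with a log2 fold change of 0.21 ± 0.08 for fiber (adjusted p = 0.198).

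HSPA5, also called BiP and a usual readout of the unfolded protein response, had 408, 498 and 363 CPM in L − N and 432, 522 and 425 CPM in L + N. In H − N it had 486, 459 and 819 CPM and in H + N 532, 455 and 1153 CPM. Replicates 3 of both high-fiber groups were the highest libraries, and the other 10 lay between 363 and 532 CPM. The log2 fold change was 0.55 with an interval from 0.04 to 1.07 for fiber (adjusted p = 0.225) and 0.75 with an interval from 0.03 to 1.48 for H + N compared with L − N (adjusted p = 0.167). HSP90B1 followed the same order of libraries at the top, with 921 and 1102 CPM in these libraries and 538 to 801 CPM in the others, and a log2 fold change of 0.12 for H + N compared with L − N (interval -0.48 to 0.73). CALR had 905 and 1331 CPM there, with L − N replicate 2 at 968 CPM, and CANX had 1016 and 1081 CPM, with L − N replicate 2 at 987 CPM. Neither lectin passed the test in any comparison.

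**Figure D4:**
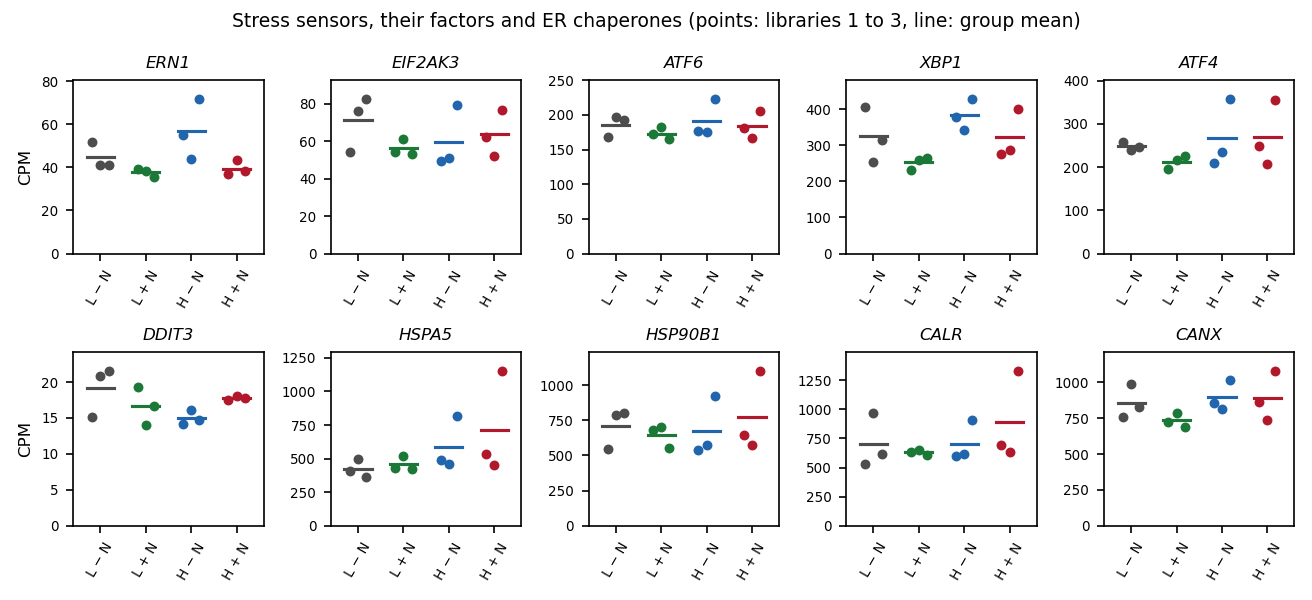
CPM of 6 sensors and factors of the unfolded protein response and of 4 ER chaperones by group, with a point for each library in the order of the replicate numbers and a line at the group mean, on axes that start at 0. None of the 10 genes passed the test, and the right-hand points of H − N and H + N in HSPA5, at 819 and 1153 CPM, lie above the other 10 libraries.

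The translocon and oligosaccharyltransferase genes showed the largest median shift of any role with fiber. Of 21 tested members, 0 were called, 19 had a log2 fold change above 0 and 9 of these had an unadjusted p under 0.05, as did 9.3% of all genes in that direction, and the median was 0.29, against 0.09 for all members and 0.02 for all genes. TUSC3, an oligosaccharyltransferase subunit, had 91.7, 72.9 and 60.9 CPM in L − N, 71.2, 68.7 and 49.8 CPM in L + N, 136, 93.6 and 101 CPM in H − N, and 106, 96.7 and 84.9 CPM in H + N. Its high-fiber libraries were above its low-fiber libraries except for L − N replicate 1, which exceeded H + N replicate 3, and the log2 fold change was 0.58 ± 0.14 (adjusted p = 0.0882). SSR2 averaged 245 ± 20.2 CPM in L − N, 194 ± 29.3 CPM in L + N, 277 ± 5.18 CPM in H − N and 240 ± 28.5 CPM in H + N, with a log2 fold change of 0.24 ± 0.09 for fiber (adjusted p = 0.185) and -0.27 ± 0.09 for NCG (adjusted p = 0.107). SEC62, which helps translocation after translation, differed from its neighbors in the list, with 96.5, 106 and 92.5 CPM in L + N and 46.2, 71.7 and 69.1 CPM in L − N, and a log2 fold change of 0.57 ± 0.17 for NCG (adjusted p = 0.068).

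This shift rested in large part on 2 libraries. For the translocon list, the median deviation from each gene's mean over the 12 libraries was 0.42 on the log2 scale in H − N replicate 3 and 0.57 in H + N replicate 3, and from -0.30 to 0.14 in the other 10. Disulfide formation (0.34 and 0.41), the COPII coat (0.22 and 0.54) and the ER chaperones (0.24 and 0.28) were likewise highest in H + N replicate 3 and second in H − N replicate 3, the values being given for H − N first. The same libraries had the highest sums of 6 stromal markers (COL1A1, COL1A2, COL3A1, DCN, LUM and PDGFRA), 60697 and 58487 CPM, compared with 24725 to 46044 CPM elsewhere. The next highest sums were 46044 CPM in L + N replicate 3 and 45757 CPM in H + N replicate 1. Their translocon medians were -0.19 and -0.06, while H − N replicate 1, with 33595 CPM, had 0.14. These sums are mostly collagen RNA. Over the 12 libraries the medians were 16118 CPM for COL3A1, 6975 for COL1A1 and 6283 for COL1A2, and 2943 for DCN, 2116 for LUM and 772 for PDGFRA. For fiber, 4 of the 6 markers had a log2 fold change above 0, and 0 were called. The part of the stroma in these levels was not tested. Without both libraries the translocon median for fiber was 0.07, and 15 of 21 members were above 0. Leaving out any 1 library kept that median between 0.17, without H + N replicate 3, and 0.35, without H − N replicate 2. Without H + N replicate 3 alone, the median of all members for fiber was 0.03. For H + N compared with L − N the translocon median changed from 0.18 to -0.13 without H + N replicate 3. For H + N compared with L + N, where 122 of 153 members (79.7%) had a value above 0 compared with 50.9% of all genes, the translocon median was 0.42 and became 0.10 without H + N replicate 3.

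**Figure D5:**
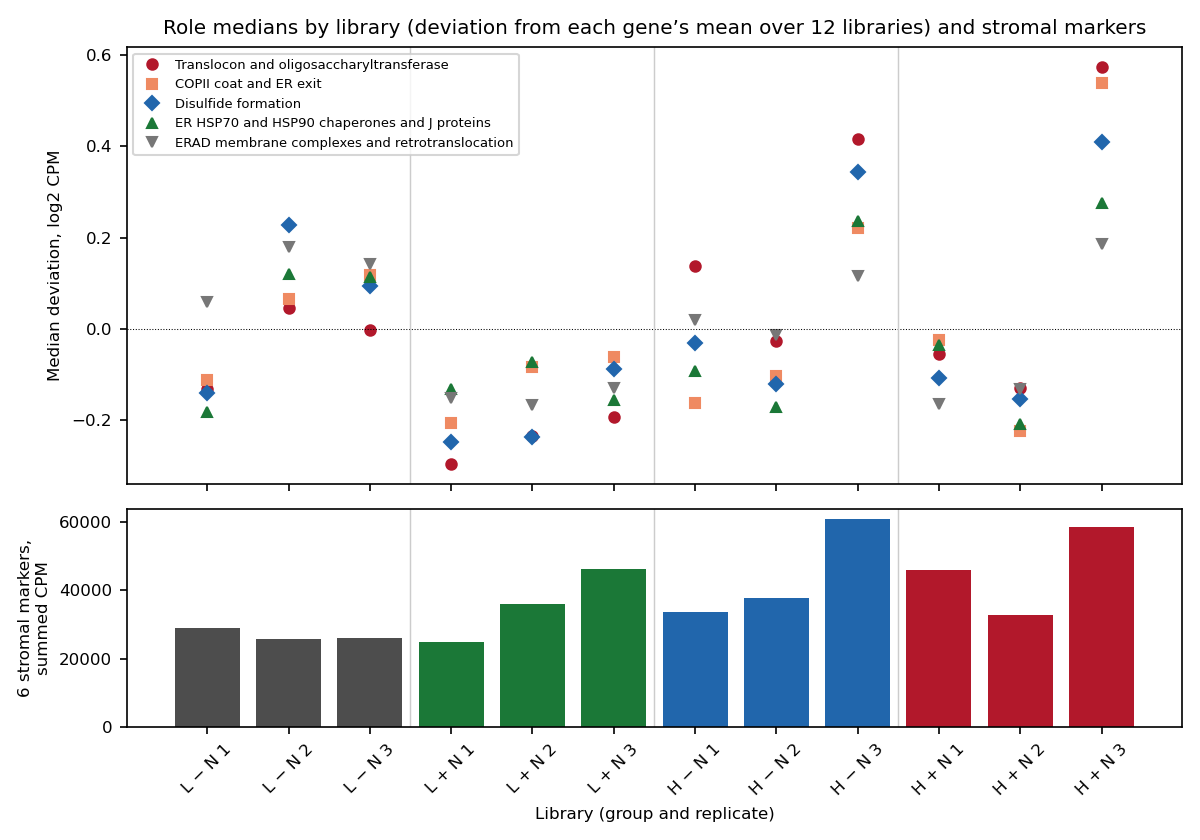
The upper panel gives the median over the members of 5 roles of the deviation from each gene's mean over the 12 libraries, in log2 CPM, and the lower panel the summed CPM of 6 stromal markers, for each library by group and replicate. H − N replicate 3 and H + N replicate 3 have translocon medians of 0.42 and 0.57 and stromal sums of 60697 and 58487 CPM, each above the other 10 libraries.

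The disulfide-forming enzymes had 8 tested members, with 0 called in any comparison. In L + N compared with L − N all 8 had a log2 fold change below 0, and the median was -0.29, which became -0.19 without L − N replicate 2. PDIA3 averaged 891 ± 150 CPM in L − N and 642 ± 56.5 in L + N, and its log2 fold change was -0.47 ± 0.26 (adjusted p = 0.254). PDIA6 had 141, 141 and 132 CPM in L − N and 107, 109 and 107 CPM in L + N, without overlap, and a log2 fold change of -0.36 ± 0.17 (adjusted p = 0.195). P4HB, which also serves as a subunit of collagen prolyl hydroxylase, averaged 379 ± 51.5 CPM in L − N, 319 ± 45.3 CPM in L + N, 396 ± 102 CPM in H − N and 412 ± 132 CPM in H + N. ERO1B, which reoxidizes the isomerases, was lower with fiber by value, with 12.6, 19.5 and 19.5 CPM in L − N, 15.8, 13.6 and 13.3 CPM in L + N, 8.55, 11.7 and 11.04 CPM in H − N, and 13.2, 12.7 and 8.09 CPM in H + N. The diets overlapped at L − N replicate 1 and H + N replicates 1 and 2, and the log2 fold change was -0.53 ± 0.17 (adjusted p = 0.135).

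Also tested were 31 genes of the stress response and secretory route that lie outside the annotated pathway. Of them, 1 fell with NCG, 1 in H − N, 2 in L + N and 1 in H + N compared with L − N, beside 1.6%, 3.71%, 3.63% and 3.66% of all genes in turn, and 0 rose. The one that fell in all 4 was DDIT4, a stress-induced inhibitor of mTORC1, with 127, 116 and 105 CPM in L − N, 63.8, 74.1 and 63.5 CPM in L + N, 69.4, 69.6 and 79.6 CPM in H − N, and 56.8, 60.1 and 57.6 CPM in H + N. As with PPP1R15A, all supplemented libraries lay below those of L − N. Its log2 fold change by edgeR's test was -0.79 ± 0.11 in L + N (adjusted p = 0.00818), -0.67 ± 0.11 in H − N (adjusted p = 0.0192), -0.99 ± 0.11 in H + N (adjusted p = 0.0136) and -0.56 ± 0.08 for NCG (adjusted p = 0.00578). SEC11A, the catalytic subunit of signal peptidase, had 109, 126 and 126 CPM in L − N and 84.6, 92.1 and 70.2 CPM in L + N, without overlap, and fell by 0.55 on the log2 scale (adjusted p = 0.0275). Whether the calls of DDIT4 and SEC11A hold in the alternative fits was not examined.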

How the data were processed

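Endometrial poly(A) RNA of 12 sows was sequenced, and libraries were grouped by the group code and replicate number in their titles. The submitters' processing notes name fastp 0.22.0, HISAT2 2.1.0, HTSeq 0.9.1 and the build Sscrofa11.1. Per the file headers, the authors deposited a read count per gene and library without normalization, and FPKM made from the counts and gene length. Counts were used for all tests and CPM values, and the deposited FPKM only to compare levels between genes. The strand setting of the counting is not given in the sources used here, and 33 members overlap another gene, 28 of them on the opposite strand. Start and end of all 160 members matched the RefSeq annotation.

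In R 4.3.3, edgeR 4.0.16 fitted a quasi-likelihood model with the 4 group means to all 12 libraries, after filterByExpr (15351 genes) and TMM scaling, and contrasts gave 8 comparisons. A gene was called at a Benjamini-Hochberg adjusted p under 0.05 over all genes tested. This departs from the study, which used DESeq2 with an added fold threshold. DESeq2 1.42.0 and that threshold (absolute log2 fold change above 1), RLE scaling, no count filter, a replicate block, fits of only 2 groups and leaving out each library were alternatives. Leaving out both H − N replicate 3 and H + N replicate 3 was added after seeing the data. The total counts of 14369781 to 19309724 give small counting errors, and the biological coefficient of variation was 0.269. No pair of replicates agreed within sampling noise. The tests were also run on simulated data. Markers were 7 lists of cell types.

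The members, the 10 role lists and the list of genes outside the pathway were chosen with earlier results of these data known. Genes are named where they are main sensors and chaperones, pass the test for fiber, NCG, the interaction or H + N compared with L − N (at most 10 in each direction), have the smallest p of their role for fiber, NCG or that comparison, are among the 10 most abundant, or pass the test with an absolute log2 fold change above 1 in any comparison. Among the tested members, UBE2D2, BCAP31, EIF2AK2, UBE2G1, SVIP, HSPA6, SEC61B and DERL1 fall outside this rule and were chosen after their values were seen. DNAJB12, ERLEC1, QSOX2, SEC24A and TRAM1L1 meet the rule through the smallest p of their role, and their values are not described. Sequences were not analysed here. The values of 1 member below the count filter are not reported here.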

Additional observations from a re-analysis of the deposited data

How the results depend on the processing

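No call changed its sign under the alternatives run. The number of members called varied. Shares in parentheses are those of all genes called in the same fit. DESeq2 called 5 for fiber (5.94%), 17 for NCG (10.9%), 2 for the interaction (1.56%), 8 for H − N (11.3%), 18 for L + N (14.4%) and 13 for H + N (14.3%) compared with L − N, and tested 158 members. The added threshold on the fold change left 1 for NCG (1.8%), 0 for H − N (2.91%), 2 for L + N (3.99%) and 1 for H + N (3.58%). Without the count filter, H + N had 5 (5.6%). With only the 2 groups compared, H − N had 0 (0.0203%) and H + N had 1 (0.747%). Without both H − N replicate 3 and H + N replicate 3, H − N had 1 (1.69%), L + N had 21 (13.4%) and H + N had 2 (3.6%), and NCG had 6 (6.71%), of which HSPA4L, YOD1 and HSPH1 were called in all 12 libraries and SEC61B, BCAP31 and DERL1 were not. Leaving out 1 library gave 0 to 5 for fiber (0% to 6.99%), 1 to 8 for NCG (3.35% to 7.9%), 0 to 12 for H − N (0% to 13%), 1 to 13 for L + N (1.33% to 12.6%) and 0 to 10 for H + N (0.00642% to 11.7%), and in 0 of these fits was the share of members above that of all genes. The 5 and the 12 came without L − N replicate 1. NCG had 1 without replicate 3 of L − N, replicate 1 or 2 of L + N, or replicate 1 of H + N, 2 without replicate 2 of L − N, and 3 without any H − N library. L + N had 1 without replicate 3 of L − N or replicate 2 of L + N, 2 without replicate 1 of L + N, 3 without replicate 2 of L − N or replicate 3 of L + N, and 6 without replicate 1 of H + N. H + N had 0 without replicate 3 of L − N or replicate 1 of H + N, 1 without replicate 2 of L − N or replicate 3 of H + N, 4 without replicate 2 of L + N or of H − N, and 5 without replicate 1 or 3 of L + N. H − N had 0 without replicate 2 or 3 of L − N or replicate 1 of H − N, and 1 without replicate 2 of L + N or replicate 2 or 3 of H − N. The cause of these changes was not tested.

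What the replicate number marks is not given in the sources used here. Of 18 same-numbered pairs, 3 had deviations correlated above 0.1 (range -0.32 to 0.28), so the numbers were not taken as a pairing. The highest value, 0.28, was that of H − N replicate 3 with H + N replicate 3, the libraries on which the translocon shift rested in large part. With the replicate block, NCG had 4 members called (5.56%), H − N 1 (2.48%), L + N 6 (7.15%) and H + N 2 (4.76%), and the other comparisons had 0.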
